A study of Mus musculus with 12 samples.

Results

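Of 43905 regions of open chromatin on chromosomes 1 to 19 of mouse bone marrow cells, 7924 (18%) carried a peak in all 3 Control and all 3 MA9 libraries and in none of the 6 ME and BN1 libraries. The regions were made by merging every peak of the 12 deposited lists that overlapped by at least 1 bp, and these 7924, called members below, were chosen by their peak calls alone. Their presence in Control and MA9 and the lack of a call in ME and BN1 are therefore the rule and not a result. A further 8465 regions were called in all 6 Control and MA9 libraries and in at least 1 ME or BN1 library, so that members made up 48.3% of the 16389 regions shared by Control and MA9. These 8465 others are the comparison for strength, position and peak summits. Other backgrounds are named where they are used.

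The study profiled CD45.2+ C57BL/6 bone marrow cells by ATAC-seq, which reads out accessible DNA through the insertions of a transposase, with 3 libraries per group from 150000 sorted cells each. Control cells carried no fusion gene by their label. MA9 cells carried MLL-AF9 and ME cells MLL-ENL, fusions of the MLL histone methyltransferase to partners found in elongation complexes, and BN1 cells carried BRD9-NUTM1, a fusion of a chromatin remodeller subunit to NUTM1. The 3 fusion groups are described as leukemic cells, and the promoter that drives each fusion, the age of the mice and the origin of each replicate are not given in the sources used here. P-values below thus measure the spread between libraries, which may be technical.

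Open chromatin lies mainly at promoters, where transcription starts, and at enhancers, which lie inside or between genes and bind cell-type factors. Promoters of widely used genes, often rich in CpG, are open in most cells, whereas enhancers differ more between lineages. In granulocytes and monocytes, PU.1, C/EBP and RUNX factors bind many of these enhancers, and MLL fusions are known for arresting cells of this lineage at an immature stage.

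To show what members at promoters look like, the 300 bases around the gene start of the 6 strongest members that overlap a promoter are printed, from 250 before to 50 after the start, as given by RefSeq for GRCm38.p6, 5′ to 3′ on the gene's strand. Capitals mark matches, on either strand, to any of 14 short motifs spelled out further on. The windows are Tspan32 (a tetraspanin of blood cells) at chr7:143004796-143005095 on the plus strand, Dock2 (an activator of Rac in leukocytes) at chr11:34783856-34784155 on the minus strand, Vamp8 (a SNARE protein of granule release) at chr6:72390618-72390917 on the minus strand, Zpbp2 (a sperm acrosome protein) at chr11:98550847-98551146 on the plus strand, Gm20346 at chr9:62344598-62344897 on the minus strand and Eef1b2 (a translation elongation factor subunit) at chr1:63176581-63176880 on the plus strand.
Tspan32: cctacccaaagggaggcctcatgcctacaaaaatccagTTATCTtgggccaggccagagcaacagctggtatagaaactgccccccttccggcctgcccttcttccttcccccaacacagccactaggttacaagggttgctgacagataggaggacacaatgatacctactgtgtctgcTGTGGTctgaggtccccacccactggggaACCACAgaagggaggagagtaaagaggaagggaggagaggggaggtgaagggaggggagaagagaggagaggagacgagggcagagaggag
Dock2: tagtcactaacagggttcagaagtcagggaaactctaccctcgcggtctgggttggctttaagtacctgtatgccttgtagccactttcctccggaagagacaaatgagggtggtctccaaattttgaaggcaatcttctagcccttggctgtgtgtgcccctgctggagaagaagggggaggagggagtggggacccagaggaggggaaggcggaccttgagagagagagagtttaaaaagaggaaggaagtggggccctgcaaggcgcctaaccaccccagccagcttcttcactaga
Vamp8: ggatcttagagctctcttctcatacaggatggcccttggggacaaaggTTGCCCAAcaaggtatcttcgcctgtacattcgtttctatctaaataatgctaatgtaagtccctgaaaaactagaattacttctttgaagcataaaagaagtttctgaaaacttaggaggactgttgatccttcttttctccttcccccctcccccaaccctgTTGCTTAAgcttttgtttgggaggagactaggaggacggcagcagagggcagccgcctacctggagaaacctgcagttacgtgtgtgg
Zpbp2: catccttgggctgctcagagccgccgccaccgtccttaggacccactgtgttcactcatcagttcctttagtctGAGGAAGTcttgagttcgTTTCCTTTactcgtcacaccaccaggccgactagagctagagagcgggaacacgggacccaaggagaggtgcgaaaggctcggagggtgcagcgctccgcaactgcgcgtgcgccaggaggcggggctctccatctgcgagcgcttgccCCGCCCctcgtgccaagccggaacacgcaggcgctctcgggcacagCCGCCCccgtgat
Gm20346: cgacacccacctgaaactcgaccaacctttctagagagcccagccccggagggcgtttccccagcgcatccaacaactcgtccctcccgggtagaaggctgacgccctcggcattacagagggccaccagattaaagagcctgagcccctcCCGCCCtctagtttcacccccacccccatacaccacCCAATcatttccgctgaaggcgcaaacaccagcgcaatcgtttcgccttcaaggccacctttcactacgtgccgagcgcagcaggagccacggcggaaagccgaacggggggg
Eef1b2: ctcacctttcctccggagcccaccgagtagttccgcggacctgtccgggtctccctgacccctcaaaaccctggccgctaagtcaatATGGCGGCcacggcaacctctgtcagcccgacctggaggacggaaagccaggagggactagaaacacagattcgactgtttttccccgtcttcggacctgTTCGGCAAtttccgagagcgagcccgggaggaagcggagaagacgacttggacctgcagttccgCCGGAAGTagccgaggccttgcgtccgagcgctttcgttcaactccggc

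Among these 6 promoters the CpG content differed widely. The ratio of observed to expected CpG was 0.0850 for Tspan32, 0.234 for Dock2 and 0.306 for Vamp8, against 0.850 for Zpbp2, 0.813 for Gm20346 and 0.963 for Eef1b2. Capitals in the Tspan32 window are a RUNX match on each strand and a GATA match, those in Vamp8 are C/EBP matches, and the Eef1b2 window holds an ETS, a YY1 and a C/EBP match, while the Dock2 window holds none of the 14.

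The strength of a peak is given as the authors' own signal value per peak, used here only as a rank within a library. A region's strongest peak in each library was ranked among the 16389 regions called in all 6 Control and MA9 libraries, so that 100 is the strongest and 0 the weakest. A difference between groups is then a shift in relative strength among these regions, not in absolute accessibility. Control lists held 25541 to 28023 peaks, MA9 lists 31968 to 33588, ME lists 8546 to 9663 and BN1 lists 3011 to 4258. The files hold no read counts, so the depth is unknown, and every list stops near a signal of 200. A region without a call is thus not shown to be closed. In bulk libraries, fewer cells with an open region and a less open region in each cell cannot be told apart.

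Members were weak among the regions that Control and MA9 share. Their median rank was 29.5, 29.9 and 30.1 in the 3 Control libraries and 24.5 in each of the 3 MA9 libraries, against 69.8 to 70.7 in Control and 73.7 to 73.8 in MA9 for the others. With the 16389 regions ordered by mean rank into 10 bins of equal size, members made up 99.5% of the weakest, bin 1, 57.7% of bin 5, 22.1% of bin 7 and 0.183% of the strongest, bin 10. ME and BN1 had the shorter lists. With the Control, MA9 and ME lists cut by signal to the 8546 peaks of the shortest ME list, 305 regions met the rule, and 235 members (2.97%) were still called in all 6 Control and MA9 libraries. With all lists cut to 3011 peaks, 71 regions met it, and 2 members were still called in all 6, those nearest Spatc1 and Plcl2. The name of the set, shared by Control and MA9 only, therefore holds for the deposited calls and for few of the members at equal list length.

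The edge of the rule was populated on both sides. Another 650 regions were called in all 6 Control and MA9 libraries and in 1 of the 6 others, 604 of them in an ME and 46 in a BN1 library, and their median mean rank was 46.4 against 27.7 for members. A further 1484 regions lacked a call in 1 Control or MA9 library and had none in ME or BN1; the missing call fell in Control 2 for 487 of them and in MA9 1 for 118. Their median width was 338 bp, against 474 bp for members.

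**Figure D1:**
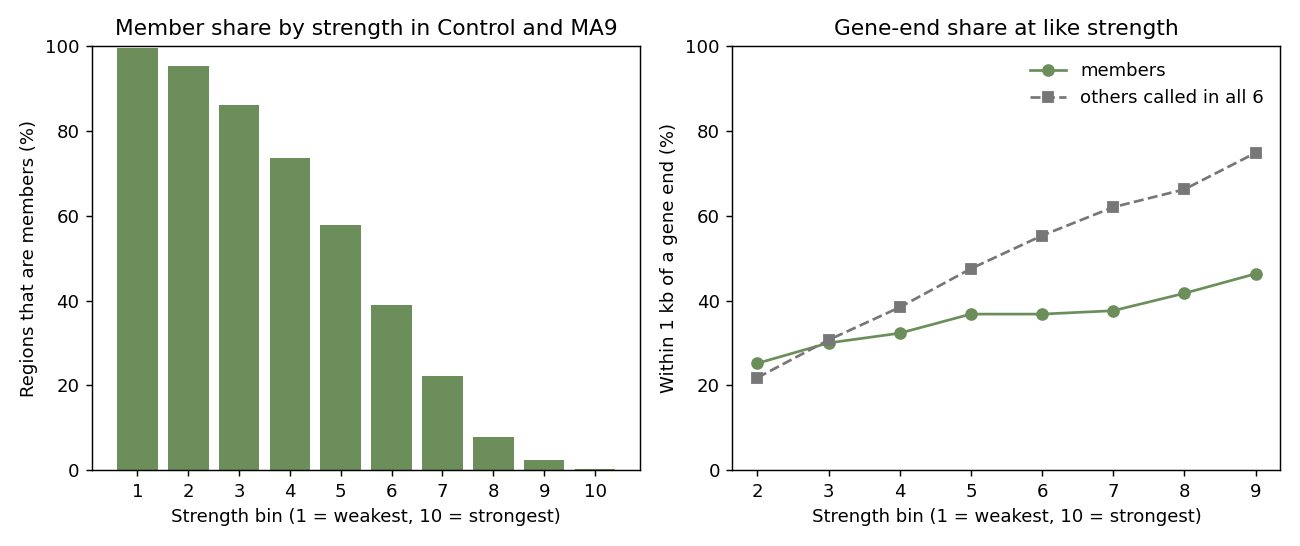
Left, the share of regions that are members (%) in each of 10 equal bins of the 16389 regions called in all 6 Control and MA9 libraries, ordered by mean signal rank from the weakest (1) to the strongest (10). Right, the share within 1 kb of a gene end (%) for members and for the others in bins 2 to 9. Members fall from 99.5% to 0.183% of regions with strength. In bin 9 the gene-end share is 46.3% of 41 members and 74.8% of 1597 others.

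Most members lay away from genes' ends. Since the annotation used here gives no strand for genes, a gene end means either end of a protein-coding gene, and 2351 members (29.7%, 95% Wilson interval 28.7 to 30.7) lay within 1 kb of one, against 63.8% of the others. A further 3115 members (39.3%) lay deeper inside a gene and 2458 (31.0%) between genes. The median distance to the nearest gene end was 5.82 kb, 40.5% of members were more than 10 kb away and 369 (4.66%) more than 100 kb. Regions called in every library were at a gene end in 72.2% of cases and those of Control, MA9 and ME without BN1 in 65.6%, whereas regions called in all 3 libraries of Control alone or of MA9 alone were there in 13% and 11.8%.

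The gene-end share rose with strength, yet it differed between members and others at like strength. In the weaker bins 2 and 3 it was 25.2% and 30% for members and 21.8% and 30.7% for the others. In bins 5, 7 and 9 it was 36.8%, 37.6% and 46.3% for members and 47.5%, 62.0% and 74.8% for the others. The numbers behind these shares were uneven, with 1561 members and 78 others in bin 2 and 41 members and 1597 others in bin 9. In bins 4 to 9 the member share was the lower one each time; no test was run on this, and strength within a bin was not matched further. Of the 235 members that kept their calls at the ME list length, 41.3% were at a gene end.

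**Figure D2:**
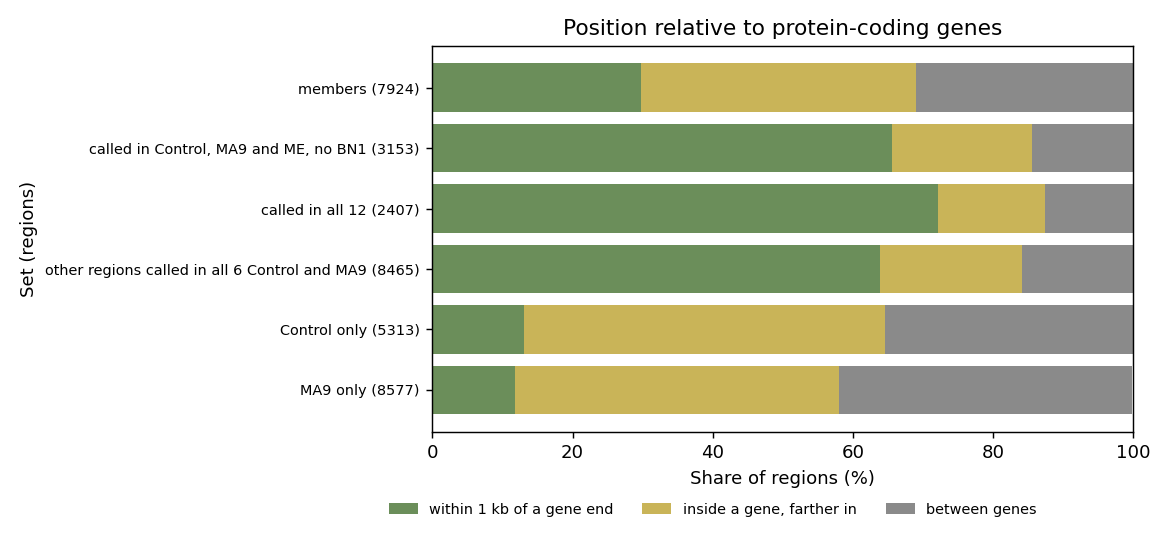
Share of regions (%) within 1 kb of a gene end, deeper inside a gene or between genes, for members and for the other sets of regions, with the number of regions in brackets. Members have 29.7% at a gene end, between the 63.8% of the others called in all 6 Control and MA9 libraries and the 13% and 11.8% of regions called only in Control or only in MA9.

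Peaks of Control and MA9 stood at nearly the same base in a member, as they did in the others. The summit of the strongest peak differed by a median of 8 bp between Control libraries, 10 bp between MA9 libraries and 14 bp between a Control and an MA9 library. For the others these medians were 5, 5 and 15 bp. The median summits of the 2 groups lay within 50 bp of each other in 85.5% of members and over 200 bp apart in 400 (5.05%), against 78.6% and 6.75% of the others. A single peak in each of the 6 libraries was found in 7173 members (90.5%), against 78.1% of the others.

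Promoters inside members held an ETS motif at a higher share than promoters at large. In all, 1944 RefSeq promoter windows of protein-coding genes overlapped a member, of 19940 on these chromosomes. The ETS motif CCGGAAGT, on either strand, was in 13.7% of them (95% Wilson interval 12.2 to 15.3), in 5.32% of all promoters (5.01 to 5.64), in 11.6% of promoters in regions of Control, MA9 and ME without BN1 and in 8.52% of those in regions called in every library. ETS factors include PU.1, FLI1 and GABPA; the motif GAGGAAGT, closer to the site of PU.1, was in 4.12% (3.32 to 5.09) against 3.03% of all (2.80 to 3.28) and 3.49% (2.79 to 4.37) of those called in every library. A YY1 motif, ATGGCGGC, was in 6.33% against 3.10% of all, a share close to the 6.03% of promoters called in every library and the 5.73% of those of Control, MA9 and ME without BN1. Intervals cover only the number of promoters counted, and promoters of 1 gene can share bases.

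The GC box, the CCAAT box and the NRF1 motif stood at lower shares in member promoters than in promoters called in every library. The GC box, GGGCGG, was in 56.4% (54.2 to 58.6) of member promoters, in 47.2% of all and in 79.0% (77.2 to 80.7) of those called in every library. The CCAAT box, CCAAT itself, was in 33.7% against 38.0% and 50.5%, and the NRF1 motif GCATGCGC was in 4.27% against 3.57% and 7.70%. The ratio of observed to expected CpG had a median of 0.739 in member promoters, 0.840 in those called in every library and 0.277 in promoters without any region. Shares of 5 other factor motifs stood between those of all promoters and those of promoters called in every library. RUNX (TGTGGT) was in 14.3% against 14.7% and 10.5%, and C/EBP (TTNNGCAA) in 8.85% against 10.2% and 8.18%. AGATAA, the motif of GATA factors, was in 7.36% against 9.51% and 3.64%, IRF (AANNGAAA) in 20.3% against 21.5% and 14.1%, and AP-1 (TGANTCA) in 5.14% against 7.03% and 3.73%. The remaining motifs, in the same order, were the E-box (CACGTG) in 10.7% against 7.91% and 11.8%, the CRE (TGACGTCA) in 2.88% against 2.31% and 4.45%, and the TATA box (TATAAA) in 7.51% against 12.6% and 4.64%. Matches of different motifs may overlap. Sequences of the members outside promoters were not analysed here.

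Between Control and MA9, members lost relative strength in MA9 more often than they gained it. With limma on normal scores of the ranks, adjusted over all 16389 regions at a threshold of 0.05, 3365 members (42.5%) were higher in Control, where the background over all regions tested was 35.8%. In the other direction 1700 members (21.5%) were higher in MA9, where the background was 34.3%. The remaining 2859 (36.1%) did not pass. Because ranks are relative, the others moved the opposite way, with 46.3% higher in MA9 and 29.6% higher in Control. The rule placed every shared region with an ME or BN1 call among the others, and its part in this difference was not tested. The 3 Control and 3 MA9 ranks did not overlap, with Control above, in 3630 members (45.8%; background 38.7%), and with MA9 above in 1958 (24.7%; background 37.2%).

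In each of the 3 kinds of position more members were higher in Control than in MA9; the positions were not tested against each other. At gene ends 45.4% of members were higher in Control and 20% in MA9, deeper inside genes 42.3% and 21.7%, and between genes 39.9% and 22.5%. Median rank differences, MA9 minus Control, were -6.98, -5.54 and -3.91 points, against -0.0488 over all 16389 regions. Mean ranks lay within 5 points of each other in 1570 members (19.8%). They were over 50 points apart in 288 members with Control above and in 54 with MA9 above. The median SD of a member's rank over replicates was 3.44 points in Control and 3.52 in MA9.

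**Figure D3:**
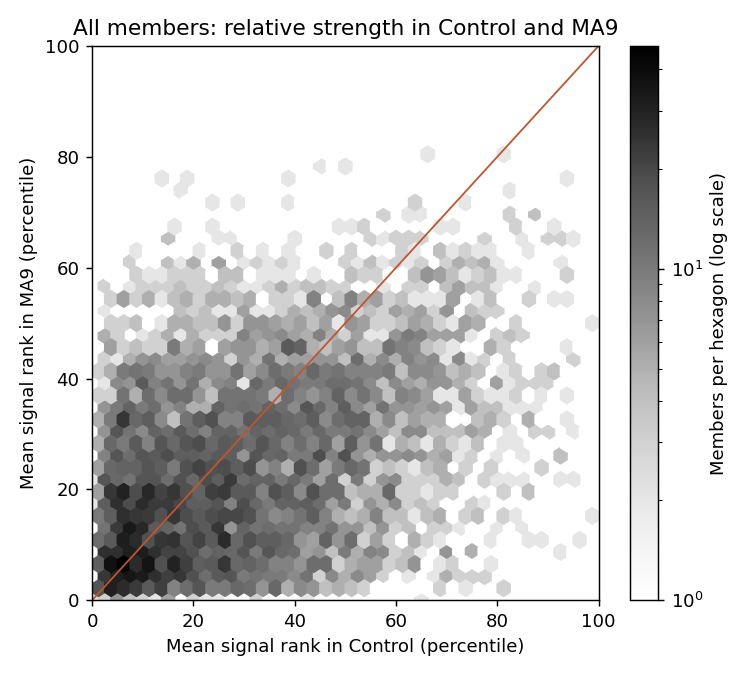
Mean signal rank (percentile among the 16389 regions) of each of the 7924 members in the 3 MA9 libraries against the 3 Control libraries, shaded by the number of members per hexagon on a log scale; the line marks equal ranks. Most members are weak in both groups, and more lie far below the line (288 by over 50 points) than far above it (54).

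The strongest members lay near genes of several functions. The top one by mean rank, inside Spatc1 (chromosome 15, 76273214 to 76275021 in mm10), ranked 94.5, 95.7 and 96.0 in Control and 84.9, 84.4 and 83.1 in MA9. The next, at Tspan32 (chromosome 7, 143004438 to 143006729), ranked 94.0, 93.6 and 96.5 in Control and 84.1, 81.1 and 84.0 in MA9. In both, every Control library stood above every MA9 library (limma adjusted p = 1.43e-05 and 1.58e-04). The one nearest Dad1, an oligosaccharyltransferase subunit, lay 7.05 kb from the gene (chromosome 14, 54226978 to 54228432), just past the last annotated T cell receptor alpha segment, which ends at 54224198. It ranked 96.8, 97.3 and 96.9 in Control and 79.1, 79.2 and 79.4 in MA9.

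Dock2's promoter member, whose sequence is printed above, ranked 95.6, 95 and 93.1 in Control and 76.9, 79.9 and 79.5 in MA9. That at Vamp8 ranked 96.1, 94.3 and 95.7 in Control and 75.9, 63.1 and 76.6 in MA9. Neither overlapped between groups, and MA9 2 was the lowest library at Vamp8. Plcl2's, which lay 37.8 kb from the gene between genes (chromosome 17, 50469829 to 50471065), was alike in both groups, at 83.1, 87.2 and 87.7 in Control and 84.7, 86.4 and 85.9 in MA9 (limma adjusted p = 0.781). Rcn3's, at the end of a gene for a calcium-binding protein of the endoplasmic reticulum, was higher in MA9, at 87.5 ± 0.572 against 80.1 ± 1.75 in Control (SD, n = 3). Those nearest Preb, Pigv and Rcsd1 were also among the 12 strongest, and the plot of ranks by library shows them.

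Members with the largest shift toward MA9 lay near 2310009B15Rik, Ecpas, Traf1, Tcf12, Hk3 and Klhl35. The member inside Ecpas, a proteasome adaptor, ranked 14.3, 2.58 and 3.13 in Control and 90.9, 88.3 and 85.1 in MA9 (limma adjusted p = 2.56e-05). That inside Tcf12, an E protein of progenitors, ranked 0.186, 1.18 and 1.72 in Control and 60.0, 63.8 and 56.8 in MA9. Near Traf1, a signalling adaptor of TNF receptors, the ranks were 9.11, 0.0397 and 2.20 in Control and 64.4, 68.5 and 69.7 in MA9. All 3 went from among the weakest shared regions in Control to well within the upper part in MA9, with no overlap.

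Members with the largest shift toward Control included 2 at genes of neutrophils. The region at Ngp, a protein of neutrophil secondary granules, spanned 5754 bp and ranked 99.9, 99.9 and 99.6 in Control and 14.3, 8.52 and 19.1 in MA9 (limma adjusted p = 9.99e-07). The region at S100a8, which encodes a subunit of calprotectin, spanned 5071 bp and ranked 99.9 in all 3 Control libraries and 20.6, 19.5 and 25.9 in MA9. Each is among the strongest shared regions in Control and a weak one in MA9. The remaining 4 lay near Smndc1 (99.5 ± 0.0533 in Control, 1.89 ± 1.52 in MA9, SD, n = 3), inside Rasa3 (98.3 ± 0.188 and 3.65 ± 2.63), inside Bckdha (77.0 ± 0.801 and 0.695 ± 1.09) and inside Gm38457 (94.7 ± 0.656 and 2.86 ± 2.81). Ngp and S100a8 are themselves on the list of 20 mature neutrophil genes. Of that list 16 genes had a gene end called in every Control library and 8 in every MA9 library, 8 to 9 per MA9 library. The share of all genes with an end called was not counted for either group. Of the list's 11 members, which include these regions at Ngp and S100a8, 6 (54.5%) were higher in Control, against 42.5% of all members. In MA9 2 (18.2%) were higher, against 21.5% of all members. The part of the neutrophils in these shifts was not tested.

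**Figure D4:**
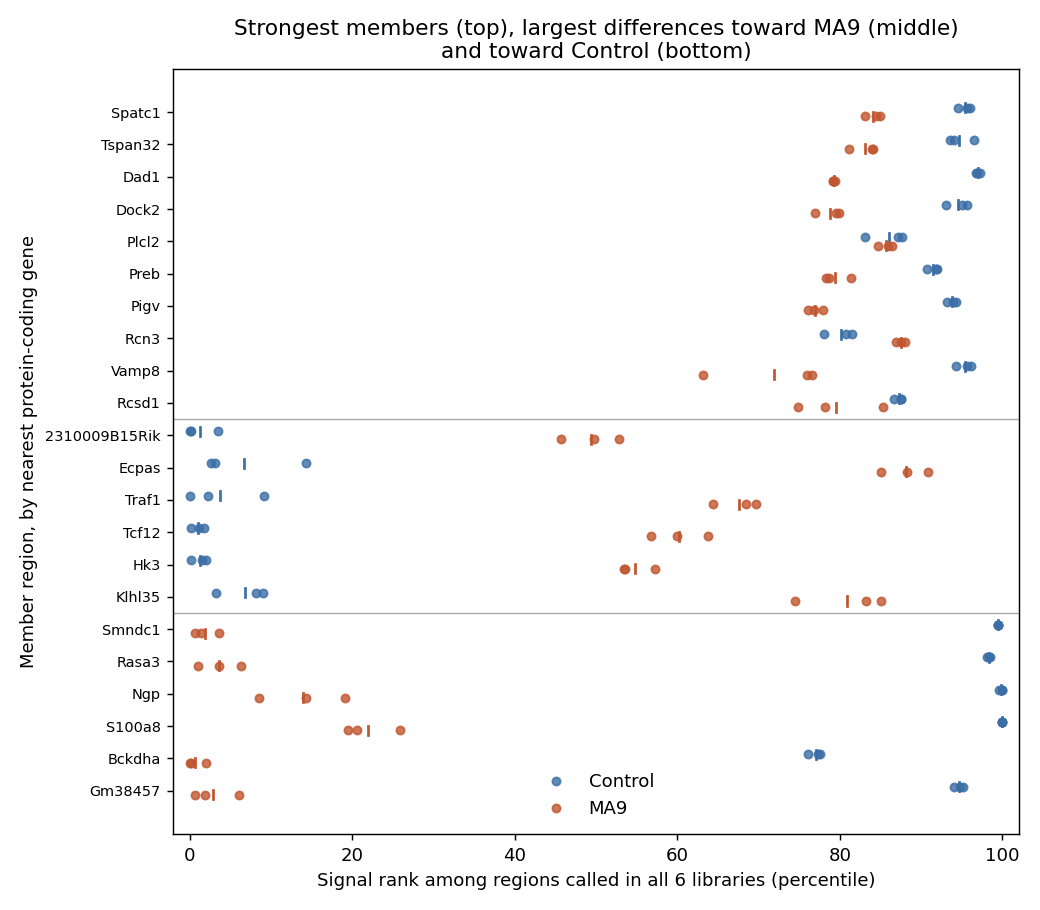
Signal rank (percentile) in each of the 3 Control and 3 MA9 libraries for 10 of the 12 strongest members, the 6 with the largest difference toward MA9 and the 6 toward Control; points are libraries and ticks are group means. The bottom 6 lie at 76.1 or higher in every Control library and at 25.9 or lower in every MA9 library.

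Each member was given to the protein-coding gene with the nearest end, which names a neighbour and not a target. In this way 5104 genes had a member, which is 37.9% of the 13472 genes with any region and is the background for the gene lists. Of these genes 3458 had 1 member, 1646 had 2 or more and 126 had 5 or more. Members sat only away from the gene's ends for 2871 genes, and an end of the same gene was called in all 3 Control libraries for 1379 of them (48.0%), in all 3 ME libraries for 1089 (37.9%) and in all 3 BN1 libraries for 425 (14.8%). Genes with more regions have more chances of a member: the functional lists below had a median of 2 to 10 regions per gene, against 2 over all genes, so their shares are not like for like with the 37.9%. Counts of members that changed are read against the 35.8% of all regions tested, and 42.5% of all members, that were higher in Control, and the 34.3% and 21.5% that were higher in MA9.

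Transcription factors of myeloid cells and progenitors had members at 31 of 40 genes with any region (77.5%, background 37.9%), 91 members in all, of which 13 were at a gene end. These genes have many regions, a median of 10 each against 2 over all genes, and members were 19.5% of their regions against 18% overall. Of the 91 members, 36 (39.6%) were higher in Control and 16 (17.6%) in MA9, shares close to those of all members. Runx1, needed for the emergence of blood stem cells, had 8 members, 2 higher in each direction, and the strongest, 23.8 kb from an end inside the gene (chromosome 16, 92800718 to 92802244), ranked 69.9, 72.0 and 74.9 in Control and 84.6, 85.2 and 85.0 in MA9 (limma adjusted p = 1.14e-04). Meis1, a partner of HOX proteins and a known target of MLL fusions, had a member 0.433 kb from its end that ranked 39.2, 43.3 and 45.2 in Control and 77.9, 76.4 and 73.3 in MA9. At both, every MA9 library ranked above every Control library.

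Lmo2, a bridging factor of early blood complexes, had 2 members, 1 higher in each direction. The strongest, at 11.6 kb, was higher in Control, with 87.5, 70.1 and 91.0 against 45.4, 39.4 and 43.4 in MA9. The following genes of the list were picked after their values were seen. Etv6, a repressor often rearranged in leukemia, had 4 members, 3 higher in Control and 1 in MA9; the one toward MA9, at a gene end and the strongest, ranked 28.4, 16.3 and 9.07 in Control and 91.8, 91.6 and 90.2 in MA9. Cebpe, which drives late granulocyte maturation, had a member 4 kb away at 75.1, 76.1 and 73.7 in Control and 27.7, 24.1 and 17.9 in MA9. Spi1, which encodes PU.1, had 2 members, both higher in Control; the stronger ranked 49.5 in Control and 9.35 in MA9 on average, and another region at an end of Spi1 was called in every ME and BN1 library.

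Cytokine and growth factor receptors had members at 25 of 34 genes (73.5%), or at 15 genes with only peaks above the median −log10 value of 4 in all lists, called the stricter threshold below. Of their 59 members 32 (54.2%) were higher in Control and 6 (10.2%) in MA9. Cxcr4, the receptor that holds cells in the marrow, had 5 members, 2 higher in Control and 1 in MA9. The strongest, 113 kb away, ranked 76.1, 75.3 and 79.8 in Control and 40.8, 48.4 and 42.1 in MA9. Near Ccr1 all 5 members were higher in Control, and within Il21r all 3 were. Il1r2, a decoy receptor of mature neutrophils noted after its values were seen, had 3 members, 1 higher in each direction. Its gene-end member ranked 96.9, 99.0 and 98.1 in Control and 15.2, 19.2 and 10.1 in MA9. The groups did not overlap at the members of Cxcr4 and Il1r2 whose ranks are given.

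Pattern recognition and innate signalling genes had members at 22 of 30 (73.3%), with 15 of 35 members (42.9%) higher in Control, close to the share of all members, and 5 (14.3%) in MA9. The strongest, 46.6 kb from Tnfaip3, a brake on NF-κB, ranked 84.6, 83.3 and 87.7 in Control and 75.5, 74.6 and 76.6 in MA9, and it kept its calls at the ME list length. At Tlr9, a sensor of unmethylated DNA, the gene-end member ranked 87.4, 87.6 and 86.4 in Control and 36.1, 33.3 and 30.2 in MA9. The member 2.06 kb from Il1b averaged 76.3 ± 2.61 in Control and 57.1 ± 1.13 in MA9 (SD, n = 3). All 3 were lower in every MA9 library than in any Control library.

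Integrin and adhesion genes had members at 15 of 20 (75%), and 23 of their 40 members (57.5%) were higher in Control against 5 (12.5%) in MA9. Members were 28.8% of the regions of these genes, against 18% overall. Of the 40 members 9 were at a gene end, and these lack an ME call by the rule. An end was called in every ME library for 1 of the 15 genes, a count set in part by the rule. The share over all genes with a member was not counted. The Icam1 member, 0.408 kb from the gene's end, was higher in MA9, at 77.0, 72.3 and 79.8 in Control and 81.7, 82.9 and 82.0 in MA9 (limma adjusted p = 0.0218), a call lost without MA9 2 or without MA9 3. At Itgb2, the common chain of the leukocyte integrins, the ranks were 84.3, 65.0 and 87.9 in Control and 49.9, 44.3 and 45.6 in MA9. Itgam, its CD11b partner, had 7 members, 4 of them higher in Control and 0 in MA9.

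The phagocyte oxidase, which makes superoxide, had members at 5 of 7 genes, and 4 of the 8 members (50%) were higher in Control and 1 in MA9. Ranks at the end of Cyba, its p22 subunit, were 83.5, 86.0 and 85.7 in Control and 65.8, 75.9 and 76.0 in MA9. In the same order of groups, those at Ncf1 averaged 75.5 ± 2.80 and 52.1 ± 3.61 (SD, n = 3). Actin signalling genes of leukocytes had members at 18 of 26 (69.2%), 27 of 45 members (60%) being higher in Control and 7 (15.6%) in MA9. The gene-end members of Hcls1 and Arhgdib, from Control to MA9, fell from 98.4 ± 0.343 to 50.3 ± 2.30 and from 96.2 ± 0.495 to 43.5 ± 1.62 (limma adjusted p = 3.63e-07 and 3.10e-07).

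Ptprc, which encodes CD45, the antigen by which all 4 groups were sorted, had 2 members, 1 higher in Control and 1 in MA9. The one at its end ranked 65.7, 65.4 and 83.5 in Control and 13.9, 18 and 2.51 in MA9, and no region at an end of Ptprc was called in all ME or in all BN1 libraries.

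Lysosome genes had members at 11 of 17 (64.7%). Of the 24 members 10 (41.7%, background 34.3%) were higher in MA9 and 4 (16.7%) in Control, with a median rank difference of 6.79 points against -0.0488 over all regions. Hexa, a lysosomal hexosaminidase subunit, had 4 of these 10. Laptm5's, 9.84 kb from this lysosomal membrane gene of blood cells, ranked 41.1, 48.4 and 42.9 in Control and 55.2, 59.9 and 54.7 in MA9. Lgmn, a lysosomal protease, had 3 of the 4 higher in Control, the strongest at 69.5 ± 0.544 in Control and 31.2 ± 3.95 in MA9 (SD, n = 3). Interferon response genes had members at 9 of 13 (69.2%), 8 of 12 members (66.7%) being higher in Control and 1 in MA9, and the Irf7 gene end averaged 91.0 ± 4.92 in Control and 33.7 ± 3.91 in MA9.

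Lists of cell type markers ranged more widely, from erythroid cells at 3 of 19 to dendritic cells at 6 of 9. Neutrophil genes had members at 10 of 18 (55.6%), monocyte and macrophage genes at 11 of 20 (55.0%) and promyelocyte granule genes at 3 of 12 (25%). With only peaks above the stricter threshold, the genes with a member in these 3 lists numbered 5, 5 and 1. Of the 5 promyelocyte members 2 were higher in MA9 and 2 in Control. Srgn, the core protein of granule proteoglycans, had its strongest at 85.8 ± 2.29 in Control and 52.1 ± 2.94 in MA9 (SD, n = 3). Bpi, an antibacterial granule protein, had a gene-end member at 15.7, 22.6 and 13.3 in Control and 87.7, 88.9 and 88.0 in MA9. Of the 18 monocyte and macrophage members 8 (44.4%) were higher in Control and 5 (27.8%) in MA9. Mpeg1, a perforin-like protein of macrophages, had one 2.80 kb away at 67.9 ± 1.47 in Control and 24.7 ± 6.61 in MA9. The member nearest Fcgr1, a high-affinity IgG receptor, was higher in MA9, at 46.8 ± 0.777 against 40 ± 2.31 in Control (limma adjusted p = 0.0457), a call lost without any 1 of the 6 libraries and with the replicate block or median-centred signal. The member at the end of Lyz2, the macrophage and neutrophil lysozyme, noted after its values were seen, ranked 74.4, 79.3 and 78.8 in Control and 6.78, 3.11 and 0.381 in MA9.

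Markers of lymphoid and erythroid cells were also among the members' neighbours. B cell genes had members at 6 of 19 (31.6%), T cell genes at 5 of 13 (38.5%), NK cell genes at 1 of 5 and erythroid genes at 3 of 19 (15.8%). With only peaks above the stricter threshold, B cell genes had a member at 1, T cell genes at 3 and erythroid genes at 0. Of the 7 B cell members 6 were higher in Control and 0 in MA9, and the median rank difference was -35.5 points. Cd72 and Blnk, of the B cell surface and of B cell receptor signalling, averaged 58.7 ± 1.35 and 52.3 ± 1.75 in Control and 19.6 ± 2.86 and 22.9 ± 5.46 in MA9 (SD, n = 3). Mast cell, basophil and eosinophil genes had members at 2 of 7 (28.6%), and of their 3 members 1 (33.3%) was higher in Control and 0 in MA9. Hdc, the histamine-forming enzyme of basophils and mast cells, had its strongest member at 87.4 ± 3.06 in Control and 20 ± 3.31 in MA9. Prg3's averaged 6.00 ± 3.49 in Control and 5.38 ± 0.691 in MA9 (limma adjusted p = 0.971). The libraries differed in B cell and erythroid markers beyond the members. Gene ends were called in every Control library for 15 of the 20 B cell genes and 18 of the 19 erythroid genes, and in every MA9 library for 4 and 3. Other lists went the other way. Of the 20 monocyte and macrophage genes, 7 had an end called in every Control library and 9 in every MA9 library. Of the 13 promyelocyte granule genes, 5 and 8 did. These gene-end counts have no background, since the share of all genes with an end called was not counted for either group. MA9 lists also held more peaks than Control lists. Cd79a and Ebf1, defining genes of B cells, and the globin genes had no gene end called in all MA9 libraries. The part of other cell types in the members' shifts was not tested.

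Stem and progenitor genes had members at 7 of 17 (41.2%), and of their 18 members 8 (44.4%) were higher in Control and 5 (27.8%) in MA9. Sox4, a factor of early progenitors, had 3 members, 2 higher in Control and 1 in MA9; the strongest, at its gene end, was higher in Control, with 75.6, 72.9 and 78.2 against 30.4, 29.2 and 37.0 in MA9. The Hoxa cluster and its cofactors had members at 2 of 11, Meis1 and Pbx2, and at none of the Hoxa genes. Housekeeping genes had members at 4 of 18 (22.2%), 0 of the 6 members at a gene end, and the 6 genes silent in blood with any region had 0. Fusion partners and their complexes had members at 5 of 16 (31.2%), among them Psip1, the LEDGF protein that tethers MLL, at 42.2 ± 9.04 in Control and 39.3 ± 3.88 in MA9 (limma adjusted p = 0.635).

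**Figure D5:**
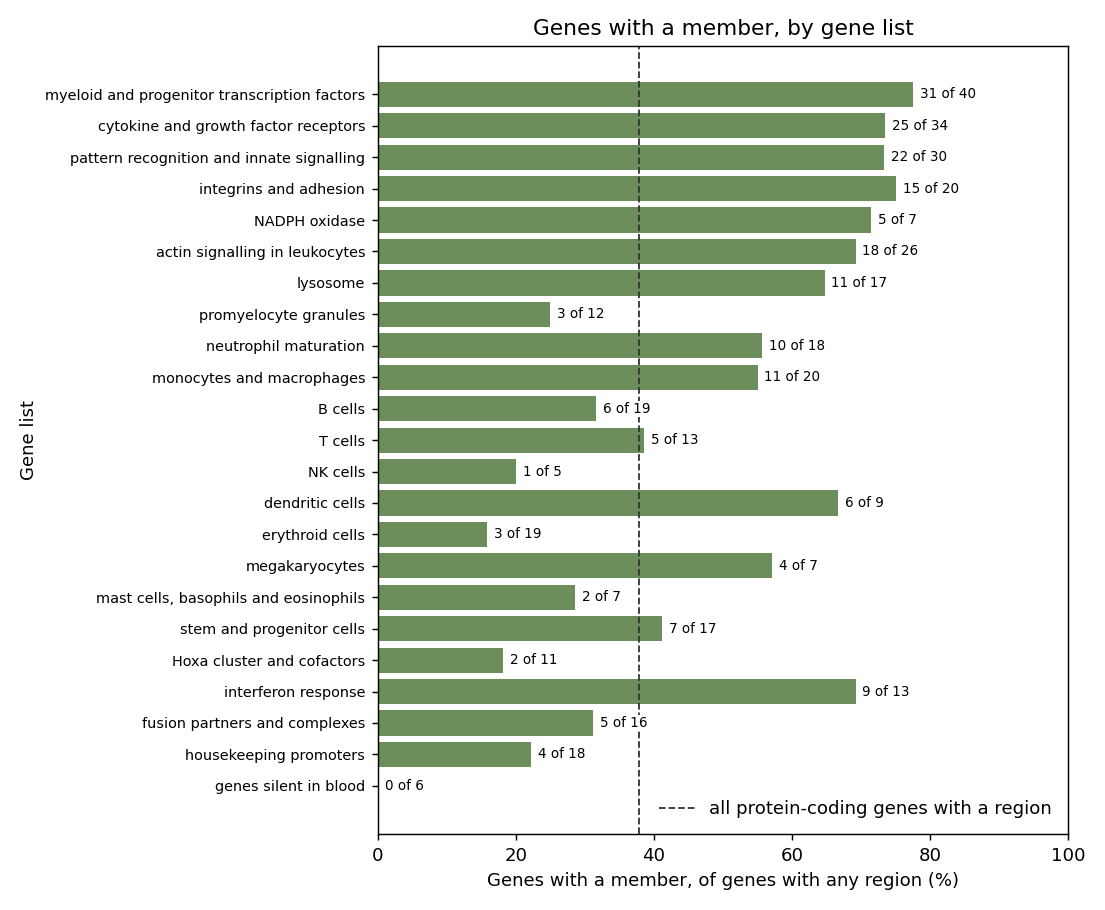
Share of genes with at least 1 member among the genes with any region (%) for 23 gene lists, with counts beside the bars; the dashed line marks the 37.9% of all protein-coding genes with a region. Myeloid transcription factors have the highest share at 77.5% and the genes silent in blood have 0 of 6.

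A few genes had many members nearby. Of all members, 1543 (19.5%) lay within 10 kb of the next one, and the median spacing was 55.3 kb. Zfp386 was the nearest gene to the most, 20, which lay 245 to 1115 kb from it, and those are the members of the immunoglobulin heavy chain locus described with the other observations. Zfp36l2, an mRNA decay factor that restrains progenitor growth, had 12 members between 17.1 and 155 kb away, 6 higher in Control and 2 in MA9, and its own gene end was called in all ME and BN1 libraries. Irf2bp2, a transcriptional corepressor, had 10 members, as did the zinc finger genes Zfp516 and Zfp608.

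At the ME list length, the 235 members still called in all 6 Control and MA9 libraries touched few genes of the lists. They were nearest Runx1 among the transcription factors, Tnfaip3 and Il1b among innate genes, Itgam and Icam1 among integrins, Cyba of the oxidase, Dock2 and Myo1f among actin regulators and Ctsb among lysosome genes. None lay nearest a gene of the lists of cytokine receptors, interferon response, cell type markers, progenitors, Hoxa genes, fusion partners or housekeeping genes.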

How the data were processed

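ATAC-seq peak lists of 12 libraries were used, 3 each of Control, MA9, ME and BN1. Per the submitters' processing notes, the build is GRCm38 (mm10) and the tools named, with no role given, are Genrich, Bowtie2 2.5.4, deepTools 3.5.1 and Picard 3.2.0; their settings are not given in the sources used here. Each deposited list gives per peak the authors' signal value, a −log10 p-value, a −log10 q-value column and a summit offset. Signal is not stated to be normalised between libraries, so it was used as ranks. Replicates were not pooled in the deposited lists. No read counts were used, so the depth per sample and the precision it gives are unknown.

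Peaks on chromosomes 1 to 19 were merged at 1 bp overlap. The members and gene lists were chosen with earlier results of these data known. MA9 and Control were compared with limma 3.58.1 (R 4.3.3) on normal scores of ranks over regions called in all 6 libraries, with trend, two-sided, Benjamini-Hochberg adjusted at 0.05; the script was tested on simulated data. Genes and promoters came from RefSeq (GRCm38.p6), 20665 protein-coding genes, each region going to the nearest gene end. Counts and ranks used Python 3.11.15. Named regions were the 12 strongest, the 6 largest differences each way, up to 3 per list, and those of the 5 genes with most members; some are not reported here, and others are said to be picked after seeing values. Alternatives covered merging, the peak threshold (a −log10 value of 4), list length, scaling, the replicate block and leaving out each library. The fusions cannot be checked in peak lists.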

Additional observations from a re-analysis of the deposited data

How the results depend on the processing

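The number of members was 7924 as deposited, 5066 with only peaks above the median −log10 value of 4 in all lists, and 2086 with that limit in Control and MA9 alone. With lists cut to the shortest ME list 305 regions met the rule, and cut to the shortest BN1 list 71. Leaving out 1 library gave 7930 to 8437. The gene-end share of 29.7% was 28.0% with windows around summits merged, 50.5% and 39.6% with those stricter limits, 28.1% with a peak in 2 of 3 libraries, 30.8% with at most 1 ME or BN1 call and 38.6% with a distance of 2.5 kb; the cause was not tested beyond the construction of each. The median summit distance between groups of 14 bp was 13 bp in regions with 1 peak per library. Genes of the lists with a member numbered 194, 146 at the stricter limit in all lists and 177 within 10 kb or inside the gene. At the stricter limit they fell from 25 to 15 for receptors, from 10 to 5 for neutrophils, from 11 to 5 for monocytes, from 6 to 1 for B cells, from 5 to 3 for T cells, from 3 to 1 for promyelocyte granules, from 3 to 0 for erythroid cells and from 2 to 1 for Hoxa genes and cofactors, and the other lists moved by 1.5 times or less. Within 10 kb, NK cells fell from 1 to 0 and housekeeping genes from 4 to 2. In promoters wholly inside a member the motif shares were 5.41% for PU.1, 30.8% for the CCAAT box, 59.9% for the GC box, 12.4% for the E-box, 5.62% for GATA and 17.2% for IRF.

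Members higher in MA9 numbered 1449 to 1663 and those higher in Control 3066 to 3250 without 1 of the 6 libraries. With the replicate block they numbered 1620 and 3246. Same-numbered Control and MA9 libraries did not deviate together (correlations 0.0217, 0.00986 and 0.0214), and not every library correlated best with its own number, so the numbers were not read as pairs. Of 81 named regions (the strongest, those with the largest differences and those of the lists, without those of the 5 genes with most members), 79 kept their call with the block, and no region that passed the threshold changed direction under any setting run. Without Control replicate 2, 76 kept it. Depth is unknown and limits what a missing call can show.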

Other observations

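The immunoglobulin heavy chain locus held 20 members, between 114932220 and 115802775 on chromosome 12 (mm10), and every one of them lay over exactly 1 annotated V segment of the Ighv1 or Ighv8 series. They were 270 to 923 bp wide, with a median of 461 bp. Of the 20, 10 were higher in MA9 and 3 in Control by limma's adjusted p, while the background over all regions was 34.3% and 35.8%. Over Ighv1-69 the ranks were 21.4, 26.4 and 23 in Control and 50.4, 54.2 and 50.8 in MA9 (limma adjusted p = 9.82e-05). Over Ighv1-58 they were 2.69, 4.5 and 7.40 in Control and 38.9, 46.5 and 37.6 in MA9. Over Ighv8-4 the order was opposite, at 37.7, 36.5 and 43.3 in Control and 6.43, 0.174 and 11.9 in MA9. The 10 of 20 V segment members higher in MA9, against 3 in Control, stand beside B cell markers, of which 6 of 7 members were higher in Control and none in MA9. Counting all regions of the locus, 22 were called in every Control library, 32 in every MA9 library, 1 in every ME library and 0 in every BN1 library. V segments are near copies of each other, and how reads that match several of them were placed is not given in the sources used here, so single segments are uncertain; the part of this in the values was not tested.

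The kappa light chain locus had 0 members, with 12 regions called in every Control library and 1 in every MA9 library. The T cell receptor alpha locus had 9 members among 18 regions of Control and 13 of MA9, the beta locus had 1 and the lambda light chain locus had 1.

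Among 919 microRNA hairpins on these chromosomes, 9 overlapped a member in whole or in part, and no share for other regions is given here. Mir423 was picked for printing after its values were seen, since its member was the strongest of the 9 in Control; the capitals mark the seed, bases 2 to 8, in the RefSeq mature sequences.
mmu-miR-423-5p: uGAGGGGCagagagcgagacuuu
mmu-miR-423-3p: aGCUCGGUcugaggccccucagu

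The hairpin of Mir423 lies on the minus strand of chromosome 11, 77078064 to 77078172, inside a member at the gene end of Nsrp1. That member ranked 71.9, 70.8 and 72.3 in Control and 34.0, 40.3 and 44.4 in MA9, so that the groups did not overlap (limma adjusted p = 4.78e-05). The member with Mir6367, 16.4 kb from Ifnar1, a chain of the type I interferon receptor, went the other way, at 1.36, 2.18 and 0.387 in Control and 37.6, 40 and 48.9 in MA9.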
